A study of Mus musculus with 12 samples.

Results

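The mitochondrial genome of the mouse holds 37 genes, and all of them have a row among the 56923 Ensembl rows of the table. They were chosen by position, as every row whose identifier lies on the mitochondrial chromosome (chrM) in the GRCm38 annotation. They comprise 13 messenger RNAs, 2 ribosomal RNAs and 22 transfer RNAs. RNA was taken from brain sections of wild-type mice that had been kept for 5 hours either in aCSF, a salt solution that sustains living slices, or in aCSF to which L-fucose was added, with 6 libraries for each condition. Every group was wild type and no other allele or agent is named. The sources used here name no dose of L-fucose, no age of the mice and no brain region. Replicate numbers are the only mark of separate samples, and nothing says that these came from separate animals, so p-values measure the spread between these libraries, which may be technical. The median library held 11168285 counted reads, aCSF 4 the fewest (9191687) and L-fucose 2 the most (18563078). Each level below is a normalized read number, that is, reads divided by a library size factor. In brain tissue as a whole, a loss of cells of 1 type and a lower RNA content per cell cannot be told apart.

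Mitochondrial DNA is transcribed from both strands as long precursors, and the transfer RNAs that lie between the other genes mark where these precursors are cut. The messenger RNAs encode core subunits of the respiratory chain and of ATP synthase, the machines that neurons rely on to pay for ion pumping and synaptic transmission. The ribosomal RNAs form the mitochondrial ribosome that translates them, with all remaining proteins supplied by nuclear genes. Most messenger RNAs, though not all, and the ribosomal RNAs of mammalian mitochondria receive short poly(A) tails. Poly-T beads such as those used here can bind these tails, whereas a mature transfer RNA ends in CCA.

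A long piece of the mitochondrial genome is also present in the nucleus, and its sequence is shown before the levels. In GRCm38, 7 annotated pseudogenes on the minus strand of chromosome 1 between 24611535 and 24616188 lie opposite chrM from 6390 to 11042, a stretch of 4653 bases. Over the 4140 bases of these pseudogene transcripts that aligned, the copies differed at 2 positions. The stretch holds 11 genes whole (mt-Ts1, mt-Td, mt-Co2, mt-Tk, mt-Atp8, mt-Atp6, mt-Co3, mt-Tg, mt-Nd3, mt-Tr and mt-Nd4l), the end of mt-Co1 and the start of mt-Nd4. The other 24 genes lie outside it.

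The lines below set both places of difference beside their copies, and the start of mt-Co2 beside its identical copy. Capitals mark the base that differs. Positions are counted from 1 at the 5′ end of the mitochondrial gene, with the mitochondrial base first, and the differences are T3C in mt-Nd3 and A1066T in mt-Co1. All sequences are read 5′ to 3′ on the strand of the gene, from the GENCODE M21 transcripts of GRCm38.
mt-Nd3, chrM:9459-9491, plus strand: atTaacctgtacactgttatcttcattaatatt
Gm28438, chr1:24613087-24613119, minus strand: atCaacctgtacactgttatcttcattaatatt
mt-Co1, chrM:6390-6423, plus strand: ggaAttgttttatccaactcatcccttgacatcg
Gm29216, chr1:24616155-24616188, minus strand: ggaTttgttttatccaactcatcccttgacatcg
mt-Co2, chrM:7013-7072, plus strand: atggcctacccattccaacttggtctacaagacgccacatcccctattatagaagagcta
Gm28661, chr1:24615506-24615565, minus strand: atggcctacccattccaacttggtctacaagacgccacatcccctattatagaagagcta
Within the aligned parts, a short read that covers neither place fits both copies equally well. The parts of the stretch outside these pseudogene transcripts were not compared. Paired positions on chrM and chromosome 1 sum to 24622578 up to mt-Nd3 and to 24622577 from mt-Nd4l on, so the copies also differ in length by 1 base between those genes. The treatment of a read with more than 1 place in the counting is not stated in the labels or processing notes.

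The 5 transfer RNA rows with the highest levels were mt-Tp, mt-Te, mt-Ts1, mt-Tc and mt-Tn, which carry proline, glutamate, serine, cysteine and asparagine. Their genes are shown because all 5 are encoded on the minus strand of the reference, opposite most of the genome, and their anticodons are in capitals.
mt-Tp, chrM:15356-15422, minus strand: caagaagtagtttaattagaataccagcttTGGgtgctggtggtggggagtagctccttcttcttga
mt-Te, chrM:14071-14139, minus strand: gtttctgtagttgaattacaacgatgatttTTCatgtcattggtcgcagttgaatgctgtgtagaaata
mt-Ts1, chrM:6870-6938, minus strand: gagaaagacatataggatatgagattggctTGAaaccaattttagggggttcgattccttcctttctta
mt-Tc, chrM:5192-5257, minus strand: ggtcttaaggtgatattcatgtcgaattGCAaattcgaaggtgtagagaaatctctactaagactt
mt-Tn, chrM:5089-5159, minus strand: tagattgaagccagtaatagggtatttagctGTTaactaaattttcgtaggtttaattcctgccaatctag
Some genes also share bases with each other. The largest such overlap joins mt-Atp8 and mt-Atp6, which encode ATP synthase subunits in different frames of 1 transcript, and its 43 bases are given here as the start of mt-Atp6.
mt-Atp8 and mt-Atp6 overlap, chrM:7927-7969, plus strand: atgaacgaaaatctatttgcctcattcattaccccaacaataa

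Mitochondrial rows took a large part of all counted reads. Many nuclear rows of this table carry reads of another position than the one their name gives. Reads of nuclear exons may therefore have gone uncounted, which would raise the mitochondrial share, and by how much was not tested. Their share was 33.9%, 36.4%, 34.4%, 27.6%, 41.9% and 44.8% in aCSF 1 to 6, and 35.0%, 36.97%, 33.8%, 34.0%, 34.4% and 40.5% in L-fucose 1 to 6. The groups overlapped, with aCSF 4 lowest and aCSF 5 and 6 highest of all libraries. The means, 35.8 ± 2.59% with L-fucose and 36.5 ± 6.16% without (SD, n = 6 each), gave a difference of -0.72 percentage points. Without aCSF 5 and 6 the aCSF mean was 33.1 ± 3.82% (n = 4) and the difference 2.72 points, and without L-fucose 6 as well it was 1.77 points. The direction of this difference therefore depended on aCSF 5 and 6, which also had the fewest rows above 0, 14340 and 14856. Their part in the results below was not tested beyond the fits that leave them out.

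**Figure D1:**
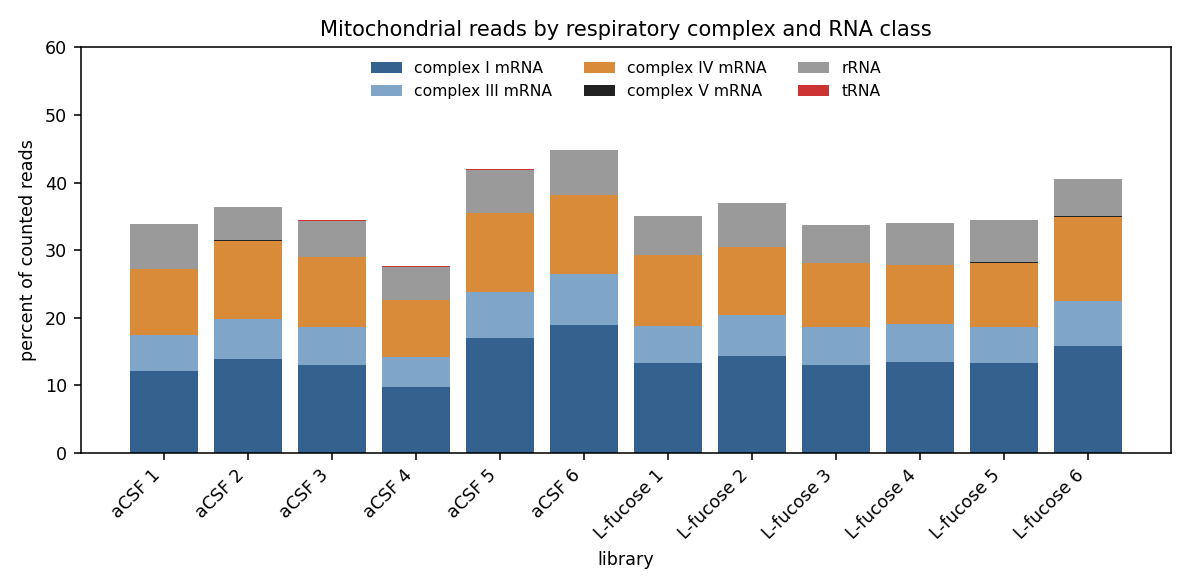
Percent of all counted reads in each of the 12 libraries (bars, from 0) that fell on messenger RNAs of complexes I, III, IV and V, ribosomal RNAs and transfer RNAs of chrM. aCSF 4 is lowest at 27.6% and aCSF 6 highest at 44.8%, and complex V and transfer RNAs are too thin to be seen in most bars.

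Within the mitochondrial reads, messenger RNAs held 83.5 ± 1.92%, ribosomal RNAs 16.4 ± 1.92% and transfer RNAs 0.122 ± 0.0159% (SD over 12 libraries). By complex, the 7 subunits of complex I (NADH dehydrogenase) had 38.5 ± 1.90%, the 3 of complex IV (cytochrome c oxidase) 28.7 ± 1.89%, mt-Cytb of complex III 16.2 ± 0.413%, and both subunits of complex V (ATP synthase) 0.0819 ± 0.0362%. As a percentage of its mean, the SD over libraries was 12.5% for the mitochondrial share of all counted reads, and within the mitochondrial reads it was 2.29% for messenger RNAs, 11.7% for ribosomal RNAs and 13.05% for transfer RNAs. Among the complexes it ran from 2.55% for complex III to 44.3% for complex V. mt-Co1 alone had 28.4 ± 1.88%, mt-Cytb 16.2 ± 0.413%, mt-Nd1 13.4 ± 0.552%, mt-Nd4 9.73 ± 0.948%, mt-Rnr2 9.71 ± 1.04%, mt-Nd2 9.48 ± 1.03% and mt-Rnr1 6.69 ± 0.920%. mt-Nd5 had 3.85 ± 0.377% and mt-Nd6 1.98 ± 0.221%, and each remaining row had below 0.2% on average.

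Divided by gene length, mean levels fell into an upper and a lower set. In normalized reads per kb, mt-Co1 stood at 756259 ± 154442, mt-Cytb at 585976 ± 140906, mt-Nd1 at 579013 ± 141535, mt-Nd2 at 385502 ± 133407 and mt-Nd4 at 296000 ± 87315 (SD over 12 libraries). The ribosomal RNAs followed with 285411 ± 54895 for mt-Rnr1 and 250519 ± 47174 for mt-Rnr2, then mt-Nd6 with 159430 ± 52125 and mt-Nd5 with 86660 ± 18959. mt-Cytb was above mt-Nd1 in 8 of 12 libraries and mt-Nd4 above mt-Rnr1 in 7 of 12, so these neighbours were not ordered beyond their spread. Every other neighbouring pair in this upper set kept its order in all 12.

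The lower set began with mt-Co2 at 10207 ± 5354 normalized reads per kb. mt-Nd3 had 6269 ± 1733, mt-Co3 5204 ± 2032 and mt-Atp6 4898 ± 2678, followed by mt-Nd4l with 1029 ± 291 and mt-Atp8 with 660 ± 273. mt-Nd3 and mt-Co3, and mt-Co3 and mt-Atp6, each kept their order in only 8 of 12 libraries. These 6 messenger RNAs are the ones that lie whole in the stretch copied on chromosome 1. In all 12 libraries the highest of them was below the lowest of the other 7 messenger RNAs, which was mt-Nd5 each time, and the ratio between those was 3.95 in L-fucose 6 and up to 13.02 elsewhere, with a median of 9.51. Subunits that sit side by side in 1 enzyme were thus read at very different levels, as for mt-Co1 over mt-Co2, at 83.5 ± 24.4 per kb (SD over 12 libraries).

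**Figure D2:**
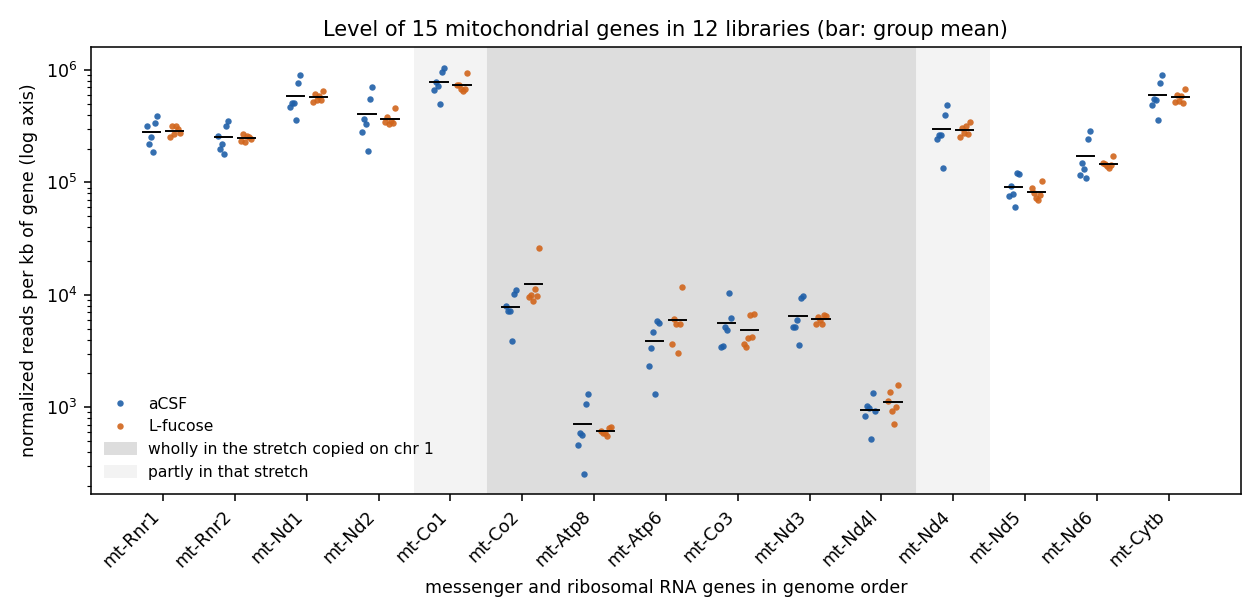
Normalized reads per kb of gene (log axis) for the 13 messenger and 2 ribosomal RNAs in genome order, with 1 point per library, aCSF in blue and L-fucose in orange, and bars for group means. The 6 genes in the dark band, whole in the copied stretch, lie below the other 9 in every library.

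The share of each gene that recurs in the nucleus was measured as the percentage of its 100-base windows found letter for letter in a nuclear transcript of the annotation. It was 99.5% for mt-Co2, 99.5% for mt-Atp6, 99.8% for mt-Co3, 97.6% for mt-Nd3 and 98.5% for mt-Nd4l, all in the lower set. mt-Nd4 had 60.8%, mt-Co1 30.8% and mt-Nd2 3.195%, while mt-Nd1, mt-Nd5, mt-Nd6, mt-Cytb, mt-Rnr1 and mt-Rnr2 had 0%, all in the upper set. mt-Atp8 went against this division, since it was lowest of all with 0% of windows found. Of its bases, only the 43 shared with mt-Atp6 lie opposite an annotated pseudogene of the chromosome 1 interval, Gm10925, which is shorter than the windows searched. The nuclear bases opposite the rest of mt-Atp8 were not analysed here. Whether reads fitting both copies were left out, and whether that set the levels of the lower set, was not tested, so the rows in this stretch may not measure their transcripts.

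Rows of the nuclear copies themselves were almost empty. The means over 12 libraries were 5.85 normalized reads for Gm28661 (copy of mt-Co2), 4.52 for Gm28439 (mt-Nd4), 4.09 for Gm28438 (mt-Nd3), 4.06 for Gm10925 (mt-Atp6), 4.06 for Gm28437 (mt-Co3), 1.56 for Gm29216 (mt-Co1) and 1.11 for Gm10222 (mt-Nd4l). Less exact copies on chromosome 2, Gm13340 of mt-Co1 (97.6% identity), Gm13341 of mt-Co2 (95.9%) and Gm13339 of mt-Nd2 (96.7%), were at 0 in all 12 libraries. Gm4076 on chromosome 13, which matches mt-Nd5 over 954 bases at 95.2%, had a mean of 1.76. In this table many nuclear rows carry reads of another position than the one their name gives, and none of these rows could be shown to be in register, so their values may not be those of the copies.

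Transcripts of 28 genes have the sense of the plus strand, named here heavy strand transcripts after the template they are made from, and those of 9 genes have the opposite sense, the light strand transcripts. The heavy strand transcripts held 97.9 ± 0.225% of mitochondrial reads and the light strand transcripts 2.10 ± 0.225% (SD over 12 libraries). Nearly all light strand reads lay in mt-Nd6, the sole messenger RNA of that strand, a complex I subunit. The labels and processing notes do not state a strand setting for the counting. If strand was not used, reads of a heavy strand precursor that crosses one of these genes would be counted there too and could not be told apart.

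Transfer RNA rows differed by strand in the opposite way. The 8 light strand transfer RNAs had means from 14.9 to 3954 normalized reads with a median of 100.2, and the 14 of the heavy strand from 1.25 to 83.4 with a median of 5.13. Of the 8 rows with the highest mean, 7 were of the light strand, and the sole heavy strand member among them was mt-Tl1 (leucine), at 83.4. Means of 11 heavy strand rows lay below 10, and 3 rows held a 0 in some library, namely mt-Td, mt-Tk and mt-Tg. Genes of 59 to 75 bases are short for counting, and poly-T beads are not meant to take up mature transfer RNA, so the level of the mature molecules was not measured.

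**Figure D3:**
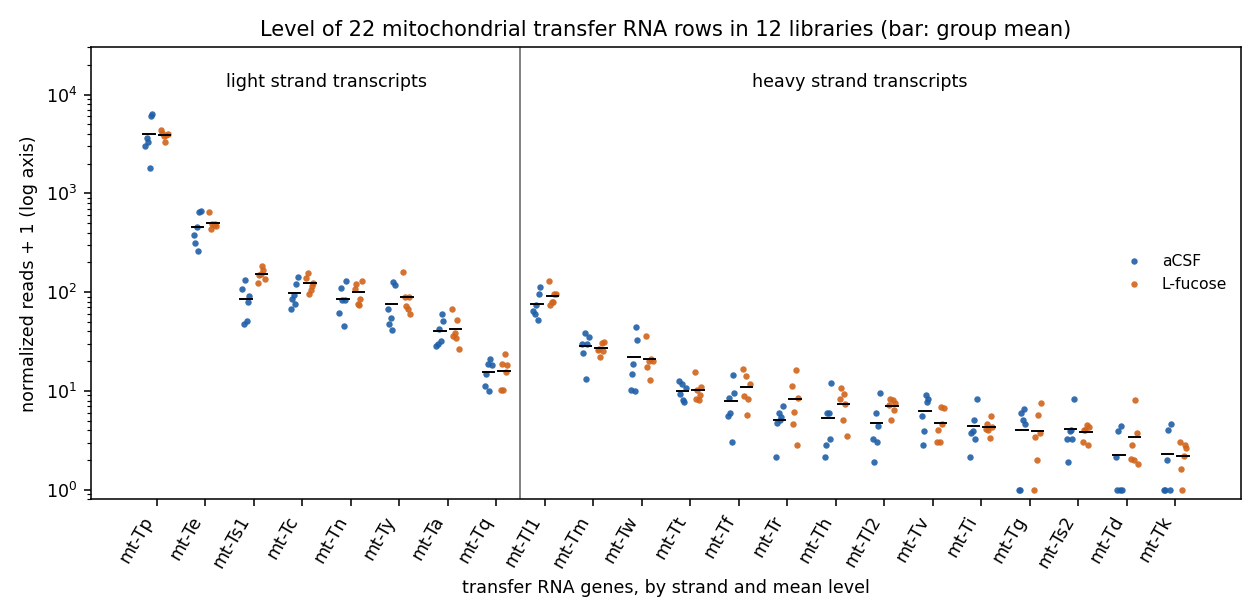
Normalized reads + 1 (log axis) for the 22 transfer RNA rows, light strand transcripts at left and heavy strand transcripts at right, each by falling mean, with 1 point per library, aCSF in blue and L-fucose in orange, and bars for group means. The light strand rows run from mt-Tp at a mean of 3954 to mt-Tq at 14.9, and 11 of the 14 heavy strand rows lie below 10.

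mt-Tp, the transfer RNA for proline beside the control region, had 3004, 3626, 3297, 1784, 6043 and 6277 normalized reads in aCSF 1 to 6 and 4327, 4082, 3827, 3313, 3876 and 3990 in L-fucose 1 to 6. mt-Te, which lies next to mt-Nd6 on the same strand, had 374.7, 311.3, 456.9, 259.9, 643.9 and 659.5 in aCSF and 640.7, 437.3, 493.9, 476.1, 485.7 and 471.2 in L-fucose. In both rows the lowest library was aCSF 4 and the highest were aCSF 5 and 6, so the L-fucose values lay within the aCSF range. Per kb, mt-Tp reached 59012 ± 18280, above the 6 messenger RNAs of the lower set, and mt-Te 6897 ± 1830 (SD over 12 libraries).

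mt-Ts1, a serine transfer RNA next to the end of mt-Co1, had 106.6, 46.2, 131.2, 50.4, 78.5 and 89.3 in aCSF 1 to 6 and 123.0, 147.2, 150.8, 181.5, 165.2 and 134.9 in L-fucose 1 to 6. Only aCSF 3 reached into the L-fucose range, and aCSF 5 and 6 were not high here. mt-Tc had 66.5, 85.0, 92.8, 74.5, 120.04 and 141.9 in aCSF and 137.4, 153.9, 95.1, 103.7, 114.4 and 123.3 in L-fucose. mt-Tn had 60.7, 109.0, 82.9, 44.3, 83.0 and 127.2 in aCSF and 107.5, 121.0, 74.9, 73.1, 84.4 and 129.1 in L-fucose. The groups of mt-Tc and mt-Tn overlapped widely with all libraries in. The other 17 transfer RNA rows had values between 0 and 159.1.

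Whether mitochondrial transcripts differ once slices have spent 5 hours with the sugar could be tested for 26 of the 37 genes, the ones past the filter on low values. They were all 13 messenger RNAs, both ribosomal RNAs and 11 transfer RNAs. With limma, 0 of these 26 passed an adjusted p of 0.05, as did 0% of the 10787 rows tested, and edgeR, limma-voom and DESeq2 on recovered reads also called 0 members. At an unadjusted p below 0.05, 2 members had higher values in L-fucose (mt-Ts1 and mt-Co2) and 0 had lower ones, beside 3.17% and 2.79% of all rows. For 0 members did the groups fail to overlap, beside 0.287% of all rows. Log2 fold changes were positive for 17 members and negative for 9, with a median of 0.06, and over all rows 52% were positive with a median of 0.01. The median was -0.01 for messenger RNAs, 0.04 for ribosomal RNAs and 0.23 for the 11 tested transfer RNAs, of which 10 were positive (all 11 when scaled to mitochondrial reads, where 52.1% of all rows were positive, and 9 when scaled to the reads outside chrM, where 46.7% were).

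Complex I, the entry point of electrons from NADH, has 7 members. Normalized reads of mt-Nd1 ran from 341868 to 861209 in aCSF (median 483708) and from 498909 to 620315 in L-fucose (median 542458), and mt-Nd2 from 199332 to 733512 (363831) and from 341290 to 471978 (358377). mt-Nd4 had 186542 to 673717 (362164) in aCSF and 347733 to 476060 (397850) in L-fucose. In these 3 genes the aCSF range enclosed the L-fucose range, because aCSF 4 was the lowest library and aCSF 5 and 6 the highest. mt-Nd5 ran from 110897 to 220344 (155883) and from 126246 to 187040 (144082), and mt-Nd6 from 56513 to 147757 (72458) and from 69387 to 88845 (74205). Their log2 fold changes were 0.05 for mt-Nd1, -0.03 for mt-Nd2, 0.09 for mt-Nd4, -0.12 for mt-Nd5 and -0.14 for mt-Nd6, and every interval included 0. The widest of these intervals was that of mt-Nd2, from -0.50 to 0.44.

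The remaining complex I members lie whole in the copied stretch and are uncertain for that reason. mt-Nd4 above lies partly in it, with 60.8% of its 100-base windows found in a nuclear transcript, so its values share that uncertainty in part. mt-Nd3 had 1240 to 3384 normalized reads in aCSF (median 1929) and 1911 to 2280 (2139) in L-fucose. mt-Nd4l, whose gene shares 7 bases with mt-Nd4, had 155.1 to 398.2 (284.7) and 212.1 to 467.9 (318.1). Both pairs of groups overlapped, and the log2 fold changes were -0.01 (interval -0.39 to 0.36) and 0.26 (-0.17 to 0.69). That of mt-Nd4l was 0.10 without aCSF 4 and 0.15 without L-fucose 6.

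mt-Cytb, the cytochrome b of complex III, ran from 413317 to 1034192 normalized reads in aCSF (median 620348) and from 586046 to 781591 in L-fucose (638898). Its groups overlapped fully, at a log2 fold change of -0.01 (interval -0.39 to 0.37). The ribosomal RNAs behaved alike in this respect. mt-Rnr1, of the small subunit, had 177254 to 368331 (269921) and 243664 to 304646 (272810), and mt-Rnr2, of the large subunit, had 281950 to 551732 (375794) and 364355 to 421639 (390135). Their log2 fold changes were 0.07 (-0.25 to 0.40) and 0.01 (-0.31 to 0.33).

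Complex IV passes electrons to oxygen, and the fold changes of its 3 mitochondrial subunits were not of 1 sign with all 12 libraries, though all were positive without aCSF 5 and 6. mt-Co1, the catalytic subunit, had 774860 to 1618333 normalized reads in aCSF (median 1157150) and 1010051 to 1441100 in L-fucose (1086294), with a log2 fold change of -0.06 (interval -0.42 to 0.31). mt-Co3 had 2676 to 8073 (3930) and 2701 to 5328 (3292), at -0.15 (-0.62 to 0.31). The groups of these genes overlapped, with all but 1 of the L-fucose values of mt-Co1 below the aCSF median.

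mt-Co2, the subunit that receives electrons from cytochrome c, had 5421, 4865, 4927, 2680, 6882 and 7509 normalized reads in aCSF 1 to 6. In L-fucose 1 to 6 it had 6496, 6757, 6053, 7709, 6731 and 17745. L-fucose 6 stood far above every other library, all 6 L-fucose libraries were above the aCSF median of 5174, and the groups overlapped through aCSF 5 and 6. The log2 fold change was 0.63 (interval 0.14 to 1.12), with an unadjusted limma p of 0.0149 and an adjusted p of 0.827. Without L-fucose 6 it was 0.39.

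Complex V is represented by mt-Atp6, the channel subunit of ATP synthase, and the small mt-Atp8. mt-Atp6 had 1595, 2305, 3177, 886, 3968 and 3835 normalized reads in aCSF 1 to 6 and 2476, 4168, 3728, 2049, 3771 and 8068 in L-fucose 1 to 6. As for mt-Co2, L-fucose 6 was highest and aCSF 4 lowest, but the groups overlapped more. Its log2 fold change was 0.65 (interval -0.01 to 1.32), and it was 0.38 without aCSF 4 and 0.43 without L-fucose 6. mt-Atp8 had 52.4 to 266.7 (median 118.3) and 113.1 to 137.3 (123.8), at -0.01 (-0.62 to 0.59).

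Among the transfer RNAs, mt-Ts1 had the largest log2 fold change, 0.92 with an interval from 0.41 to 1.43, an unadjusted limma p of 0.00117 and an adjusted p of 0.601. Over 6 libraries each, L-fucose had a mean of 150.4 ± 20.9 (SD) and aCSF one of 83.7 ± 32.7, and 6 of 6 L-fucose libraries were above the aCSF median. It lies in the copied stretch and overlaps the end of mt-Co1 on the other strand by 3 bases. mt-Tc was at 0.35 (-0.10 to 0.81), mt-Ty (tyrosine) at 0.30, mt-Tl1 at 0.30, mt-Tn at 0.26 and mt-Te at 0.23. Single libraries carried much of these values, since without aCSF 4 mt-Te was at 0.084, mt-Tn at 0.095, mt-Ty at 0.15 and mt-Tl1 at 0.197, and without L-fucose 1 mt-Ty was at 0.11 and mt-Tl1 at 0.191. mt-Tw (tryptophan) was at 0.12, mt-Tp at 0.09, mt-Ta (alanine) at 0.05, mt-Tq (glutamine) at 0.01 and mt-Tm (methionine) at -0.01, each with an interval that included 0. The 11 rows not tested had values of 0 to 15.5 normalized reads in single libraries.

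**Figure D4:**
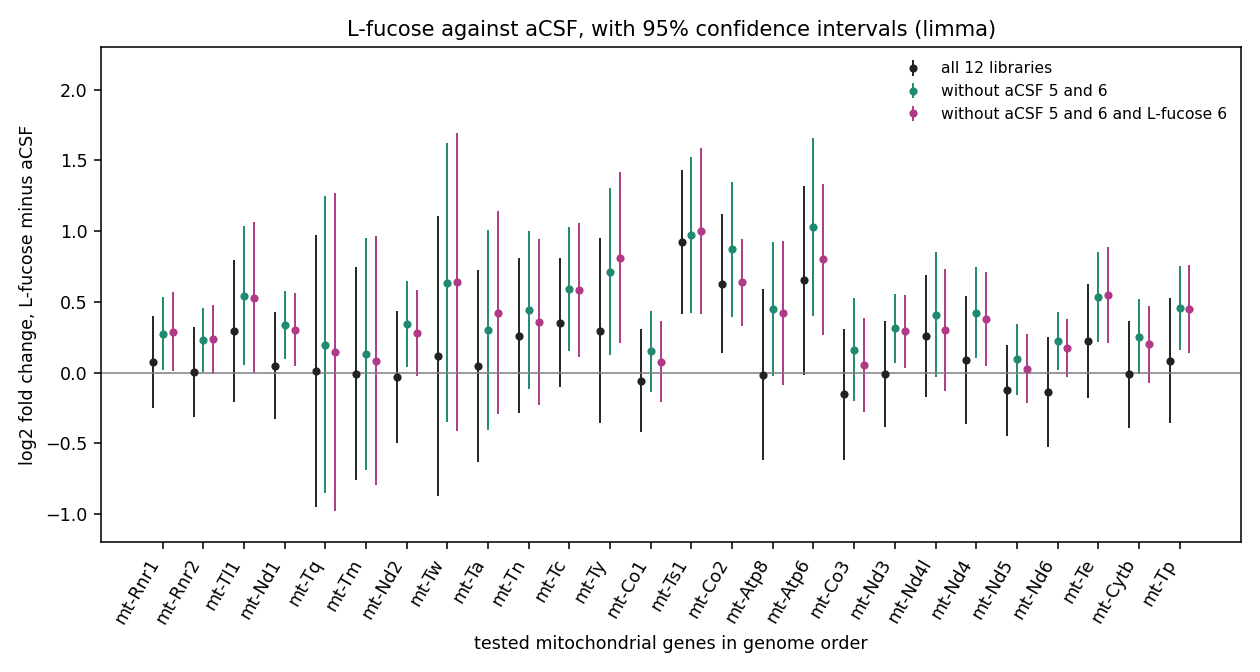
Log2 fold change (L-fucose minus aCSF) with 95% confidence intervals from limma for the 26 tested genes in genome order, in the fit of all 12 libraries (black), without aCSF 5 and 6 (green), and without L-fucose 6 as well (magenta). All green and magenta points lie above 0, and among the black ones mt-Ts1 at 0.92 and mt-Co2 at 0.63 have intervals above 0.

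aCSF 5 and 6 were the highest libraries in 11 of the 15 messenger and ribosomal RNA rows, the exceptions being mt-Co2, mt-Atp6, mt-Co3 and mt-Nd4l. aCSF 4 was the lowest in 14 of 15, all but mt-Co3. The mean of aCSF 5 and 6 over that of aCSF 1 to 4 was 1.81 for mt-Nd1, 2.14 for mt-Nd2, 1.52 for mt-Co1, 1.499 for mt-Rnr1 and 2.52 for mt-Atp8, whereas it was 1.00 for mt-Ts1. Leaving out these libraries therefore by itself moves most fold changes up.

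Without aCSF 5 and 6, all 26 tested members had positive log2 fold changes, with a median of 0.38, while 48.8% of all 10425 rows did and their median was -0.01. aCSF 4, the lowest library in 14 of 15 messenger and ribosomal RNA rows, stayed in this fit and the one below. The members come from the same libraries and largely move together, so they are not 26 separate observations. The median was 0.34 for messenger RNAs and 0.53 for transfer RNAs. With limma 0 members and 0% of all rows passed the adjusted threshold. At an unadjusted p below 0.05 there were 15 members, all with higher values in L-fucose, beside 5.37% of all rows with higher and 5.92% with lower ones. The groups no longer overlapped for 4 members, mt-Nd1, mt-Co2, mt-Tl1 and mt-Tc, each higher in L-fucose, beside 0.95% of all rows. mt-Atp6 was at 1.03 (interval 0.40 to 1.66), mt-Ts1 at 0.97 (0.42 to 1.52), mt-Co2 at 0.87 (0.39 to 1.35) and mt-Nd1 at 0.34 (0.09 to 0.58), and the lowest adjusted p among members in this limma fit was 0.276, that of mt-Co2.

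Without L-fucose 6 as well, 26 members remained positive, with a median of 0.33, beside 48.6% of 10182 rows. 11 members had an unadjusted p below 0.05 with higher values and 0 with lower ones (6.8% and 7.03% of all rows), the same 4 genes did not overlap (1.62%), and 0 passed the adjusted threshold in limma (0% of all rows). mt-Co2 was at 0.64 (interval 0.33 to 0.95) with a limma adjusted p of 0.193, mt-Ts1 at 1.00 (0.41 to 1.59) and mt-Atp6 at 0.80 (0.26 to 1.34). mt-Nd6 was at 0.18 and mt-Co1 at 0.08, with intervals that included 0.

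Dividing by the mitochondrial reads of each library takes out the part that all chrM rows share. On that scale 0 members passed in limma (0% of all rows), and 3 had an unadjusted p below 0.05, mt-Ts1, mt-Co2 and mt-Atp6, all with higher values in L-fucose, beside 0.89% of all rows with higher and 1.05% with lower ones. The groups did not overlap for 1 member, mt-Co2, beside 0.0464% of all rows. Rows outside chrM were divided by the mitochondrial reads too, and so took on the spread of those reads. Without that division, 3.17% of all rows had higher and 2.79% lower values at that limma p. The groups of 0.287% did not overlap in either direction. The low percentages on this scale are therefore not a like background for the members. mt-Co2 took 0.152%, 0.126%, 0.132%, 0.105%, 0.127% and 0.120% of mitochondrial reads in aCSF 1 to 6, and 0.171%, 0.162%, 0.162%, 0.194%, 0.178% and 0.374% in L-fucose 1 to 6. All L-fucose libraries were thus above all aCSF libraries, by a narrow margin at the edge, and L-fucose 6 was again far from the rest. The log2 fold change of this share was 0.64 (interval 0.26 to 1.02), with an unadjusted limma p of 0.00207 and an adjusted p of 0.999.

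mt-Co1 and mt-Cytb of the upper set were each also set over mt-Co2. mt-Co1 over mt-Co2, both per kb, was 83.3, 110.4, 98.9, 128.0, 96.2 and 95.4 in aCSF 1 to 6 and 77.0, 73.8, 76.3, 58.0, 68.8 and 36.0 in L-fucose 1 to 6. mt-Cytb over mt-Co2 ran from 61.6 to 92.2 in aCSF and from 26.3 to 60.4 in L-fucose. Neither ratio overlapped between the groups, and the gap of the second was small. They reuse the mt-Co2 values above, against genes that hold large parts of the mitochondrial reads, so they are not separate evidence. Both ratios have a row of the copied stretch as denominator, so they carry its uncertainty, and no test was made of them. mt-Co1, the numerator of the first, also lies partly in that stretch, with 30.8% of its 100-base windows found in a nuclear transcript. Not every gene of the upper set separated in this way. mt-Nd1 and mt-Co2 were at 466698 and 7925 normalized reads per kb in aCSF 1, and at 610049 and 9878 in L-fucose 2. The ratio of mt-Nd1 to mt-Co2 was thus higher in L-fucose 2 than in aCSF 1, and its groups overlapped. All 6 messenger RNAs of the stretch together held 0.355 ± 0.0425% of mitochondrial reads in aCSF and 0.461 ± 0.127% in L-fucose (SD, n = 6 each), with overlap, and 0.410 ± 0.0266% in L-fucose without L-fucose 6 (n = 5).

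**Figure D5:**
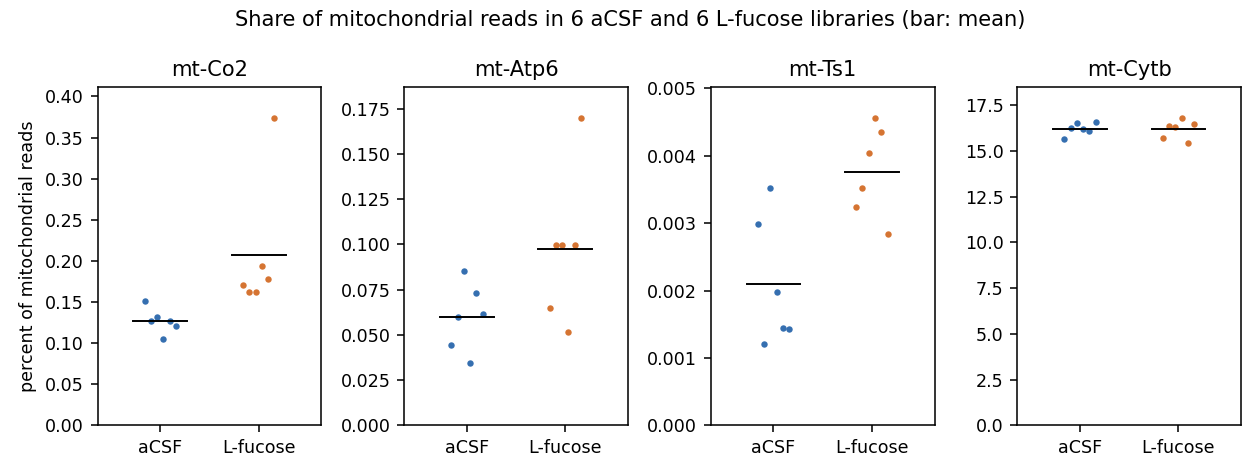
Percent of mitochondrial reads (axes from 0, a different scale in each panel) held by mt-Co2, mt-Atp6, mt-Ts1 and mt-Cytb, with 1 point per library and bars for group means. The aCSF and L-fucose points of mt-Co2 do not overlap, those of mt-Atp6 and mt-Ts1 do, and mt-Cytb stays between 15.5% and 16.8%.

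Other shares of mitochondrial reads overlapped between the groups. Light strand transcripts had 1.80%, 2.10%, 1.94%, 2.303%, 2.47% and 2.49% in aCSF 1 to 6 and 2.17%, 1.92%, 2.08%, 1.85%, 2.06% and 1.98% in L-fucose 1 to 6. Each of the 6 L-fucose shares was under 2.204%, the median in aCSF, yet the L-fucose range lay inside that of aCSF, and without aCSF 5 and 6 the aCSF mean was 2.04% against 2.01% in L-fucose. Transfer RNAs had 0.127 ± 0.0162% in L-fucose and 0.115 ± 0.0143% in aCSF, complex I 38.7 ± 0.476% and 38.3 ± 2.76%, and complex IV 28.3 ± 1.86% and 29.2 ± 1.99% (SD, n = 6 each). mt-Rnr2 over mt-Rnr1, in normalized reads per kb, was 0.861 ± 0.0377 in L-fucose and 0.901 ± 0.0519 in aCSF, also with overlap.

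Nuclear partners of these genes could hardly be read. Of 39 rows named for factors of mitochondrial transcription, RNA processing and DNA upkeep, 0 were in register, and of 91 rows named for nuclear subunits of the respiratory chain, 2 were. These were Ndufa4, at 9427 ± 1404 normalized reads with L-fucose against 8460 ± 1145 without, and Ndufb6, at 1521 ± 385 and 1290 ± 168 (SD, n = 6 each). Their log2 fold changes were 0.15 and 0.21, with intervals that included 0, so 0 of 2 passed in either direction. By a second version of the scan for rows in register, only Ndufa4 of these was in register. Of 22 markers of brain cell types, 2 were in register, both neuronal. Basp1, a growth cone protein, had a mean of 23323 normalized reads and Cnr1, a cannabinoid receptor, of 2065. By the second version neither was in register, and the only marker that was is Kcnd2, also listed as neuronal. Glial and vascular markers could not be read.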

How the data were processed

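The deposited table has 56923 Ensembl rows and 12 libraries. Its values are a signal that the authors normalized by dividing reads by a size factor. The values themselves show this: multiplied back, 100% came out whole (tolerance 0.01 reads), and recomputed median-of-ratios factors differed by at most 4.46e-10 in relative terms. Per the submitters' processing notes, the tools were Trimmomatic 0.39, HISAT2 2.2.1, featureCounts 2.0.3 and DESeq2 2.11.40.8, with build mm10. Per the labels' protocols, poly-T beads selected the RNA and random hexamers primed it.

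Rows that reached 10 in 6 or more libraries were fitted with limma 3.58.1 (trend) on log2(value + 1), which understates changes of low rows. P-values were two-sided and adjusted by Benjamini-Hochberg over all tested rows. Intervals are 95% confidence intervals from limma. Identity was searched in GENCODE M21 nuclear transcripts by exact windows of 50, 100 and 150 bases and with BLAST 2.17.0, keeping matches of at least 95% identity over at least 60 bases. This replaces a planned search of whole chromosomes, and with it the planned minimum length for naming nuclear copies. A nuclear row was called in register where, in windows of 80 rows, levels matched exons best within 1000 bp of no displacement over at least 120 rows, which held for 820 rows by fraction of exon bases and for 420 by their presence, 400 of them shared. The first version was kept after both had been seen, so the status of a row depends on the scan. Named genes were all 37 members, the transfer RNAs with values in every library being the 5 of highest mean.

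Alternatives were edgeR 4.0.16 with TMM or RLE factors, limma-voom and DESeq2 1.42.0 on recovered reads, other pseudocounts and filters, scaling to the reads on or outside chrM, a replicate block and left-out libraries. limma was tested on simulated data. R 4.3.3, Python 3.11.15, numpy 2.4.6 and pandas 2.3.3 were used. The members and lists were chosen with earlier results of these data known.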

Additional observations from a re-analysis of the deposited data

Results flagged for a closer look

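In 9 of 80 groups of 6 values, 1 library stood apart from the remaining ones, and each time it was the highest. Chance sets 1 library apart, at either the high or the low end, in about 5% of groups. In these 9, the gap to the nearest value was at least 0.625 of the range. The groups are not independent, since rows of 1 library move together, so the count cannot be judged against that 5%. In L-fucose 6, mt-Co2 was at 17745 normalized reads against 6053 to 7709 in L-fucose 1 to 5, mt-Atp6 at 8068 against 2049 to 4168, and mt-Co1 at 1441100 against 1010051 to 1130265. In L-fucose 1, 4 transfer RNAs were high. mt-Te was at 640.7 against 437.3 to 493.9, mt-Ty at 159.1 against 59.2 to 88.8, mt-Tl1 at 129.2 against 73.6 to 94.4, and mt-Tw at 35.1 against 11.8 to 19.97. mt-Td was at 7.07 in L-fucose 4 against 0.822 to 2.72, and mt-Ts2 at 7.34 in aCSF 6 against 0.924 to 3.02, both a few reads.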

How the results depend on the processing

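With limma, edgeR (TMM or RLE factors) and limma-voom, 0 chrM genes and 0 rows of the table passed under each alternative run, and DESeq2 called 0 chrM genes and 1 other row, which was lower in L-fucose. The replicate block also gave 0 rows higher and 0 lower and reversed no member, but it moved p-values. With the block, the unadjusted limma p was 4.56e-04 for mt-Atp6 (0.0545 without it) and 0.00207 for mt-Co2 (0.0149). For mt-Ts1 it rose to 0.00282 (0.00117). The adjusted limma p with the block was 0.615 for mt-Atp6 and 0.901 for mt-Co2 and mt-Ts1. Deviations of libraries with the same number correlated between -0.168 and 0.17, so no pairing by number was seen. This cannot exclude pairing, since both groups carry the same sample numbers and other spread between libraries may hide it. Over the 13 settings that do not leave out single libraries, 295 of 334 member fold changes kept their direction and 39 reversed. mt-Ts1, mt-Co2, mt-Atp6, mt-Tc, mt-Te, mt-Tl1, mt-Tn, mt-Ty and mt-Nd4l stayed positive in each of these settings that tested them and with each single library left out, though their size moved with it, as given below.

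Without aCSF 5 and 6, log2 fold changes turned positive for mt-Tm (0.13), mt-Nd2 (0.34), mt-Co1 (0.15), mt-Atp8 (0.45), mt-Co3 (0.16), mt-Nd3 (0.31), mt-Nd5 (0.094), mt-Nd6 (0.22) and mt-Cytb (0.25). Without L-fucose 6 as well, these were 0.085, 0.28, 0.078, 0.42, 0.053, 0.29, 0.027, 0.18 and 0.20 in the same order. mt-Rnr2, mt-Nd1, mt-Tw, mt-Nd4 and mt-Tp turned negative in edgeR with TMM factors (-0.034, -0.017, -0.042, -0.016 and -0.037), with RLE factors (-0.035, -0.018, -0.043, -0.018 and -0.038) and in DESeq2 (-0.034, -0.017, -0.041, -0.016 and -0.037). limma-voom gave positive values for mt-Tm (0.016), mt-Atp8 (0.023) and mt-Nd3 (0.0028). Scaled to mitochondrial reads mt-Tm was at 5.0e-04, and scaled to the reads outside chrM mt-Rnr2 was at -0.019 and mt-Tq at -0.0024. The causes were not tested.

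With 1 library left out at a time, the chrM share differed by -2.51 to 0.944 percentage points, mt-Co2 ran from 0.39 to 0.74, mt-Ts1 from 0.77 to 1.07, mt-Atp6 from 0.38 to 0.82, mt-Tc from 0.26 to 0.47, mt-Te from 0.084 to 0.35, mt-Tl1 from 0.19 to 0.42, mt-Tn from 0.095 to 0.40, mt-Ty from 0.11 to 0.47, mt-Nd4l from 0.10 to 0.38 and mt-Nd5 from -0.23 to -0.034. Ranges that crossed 0 were those of mt-Atp8 (-0.26 to 0.20), mt-Co1 (-0.175 to 0.0375), mt-Co3 (-0.27 to 0.045), mt-Cytb (-0.15 to 0.12), mt-Nd1 (-0.078 to 0.19), mt-Nd2 (-0.22 to 0.15), mt-Nd3 (-0.17 to 0.12), mt-Nd4 (-0.12 to 0.25), mt-Nd6 (-0.25 to 0.029), mt-Rnr1 (-0.0395 to 0.17), mt-Rnr2 (-0.086 to 0.11), mt-Ta (-0.098 to 0.17), mt-Tm (-0.22 to 0.096), mt-Tp (-0.12 to 0.24), mt-Tq (-0.11 to 0.13) and mt-Tw (-0.061 to 0.37). The 11 transfer RNA rows left untested, at 0 to 15.5 normalized reads, hold too few reads for precise values, and why they are low was not tested.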
